A study of Mus musculus with 4 samples.

Results

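The genes described here are 10 enzymes, receptors and signalling genes of classical and alternative macrophage activation, chosen by symbol for their function from the 16360 gene rows of the count table. They are the arginine-using enzymes Arg1, Arg2 and Nos2, the itaconate-making enzyme Acod1, the interleukin-4 response genes Retnla and Mrc1, the receptor chains Il4ra, Il10ra and Ifngr1, and the transcription factor Stat6. All 10 had a row, and 9 of them passed the filter on low counts and were tested among 13575 genes; Nos2 did not pass. The cells were recruited alveolar macrophages, which arise from blood monocytes and settle in the airspaces of an injured lung. They came from males homozygous for R213G, a variant of the extracellular superoxide dismutase EC-SOD (gene Sod3), and from WT males, with 2 libraries per genotype. Every mouse, of either genotype, was 8 to 10 weeks old, of the strain given as CD57/Bl6, and had received intratracheal bleomycin, 100 µl of a solution of 1 U/ml. The cells were sorted 7 days later as high for CD64 and CD11b and low for Siglec-F. No library from uninjured lungs was analysed here, so the levels below cannot be divided into baseline and response to bleomycin in either genotype. The labels do not say whether a library was made from 1 mouse or from a pool, so the p-values rest on the spread between libraries, which may be technical.

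Macrophages are often described along a line from classical activation, driven by interferon gamma and microbial products, to alternative activation, driven by interleukin-4 and interleukin-13. Arginine marks the division in mice: classically activated cells turn it into nitric oxide with the inducible synthase Nos2, and alternatively activated cells split it into ornithine and urea with Arg1. Interleukin-4 binds a receptor that contains Il4ra, which activates STAT6, and STAT6 switches on genes such as Arg1, Retnla and Mrc1. In bleomycin injury, recruited macrophages of the alternative type are known for their part in repair and fibrosis.

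Total counts ranged from 33488569 to 35176210 per library. R213G replicate 1 stood apart from the other libraries, with 13584 genes detected against 14598 to 15194 in the others, and it was the lowest library for 36.5% of tested genes and the highest for 31.2%. The markers of the sorted cell type were abundant in every library: the 8 macrophage genes Cd68, Adgre1, Fcgr1, Itgam, Lyz2, Csf1r, Mertk and Cd14 summed to 24190 and 28860 CPM (counts per 1e6 of the TMM-scaled library size) in R213G and 30930 and 26990 CPM in WT. Sod3 itself had 4 and 47 counts in R213G and 47 and 96 counts in WT; the variant changes an amino acid, so this count does not check the labels.

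None of the 9 tested members passed at an adjusted p under 0.05, where 0% of all tested genes passed (edgeR quasi-likelihood test with Benjamini-Hochberg adjustment over all genes; adjusted p = 0.9996 for each member). At an unadjusted p under 0.05 there was 1 member, Retnla, against a background of 2.22%. Non-overlapping genotypes were found for 1 member, Arg2, against 28.9% of all tested genes. Of the 9, 5 had a negative log2 fold change (R213G minus WT) and 4 a positive one.

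**Figure D1:**
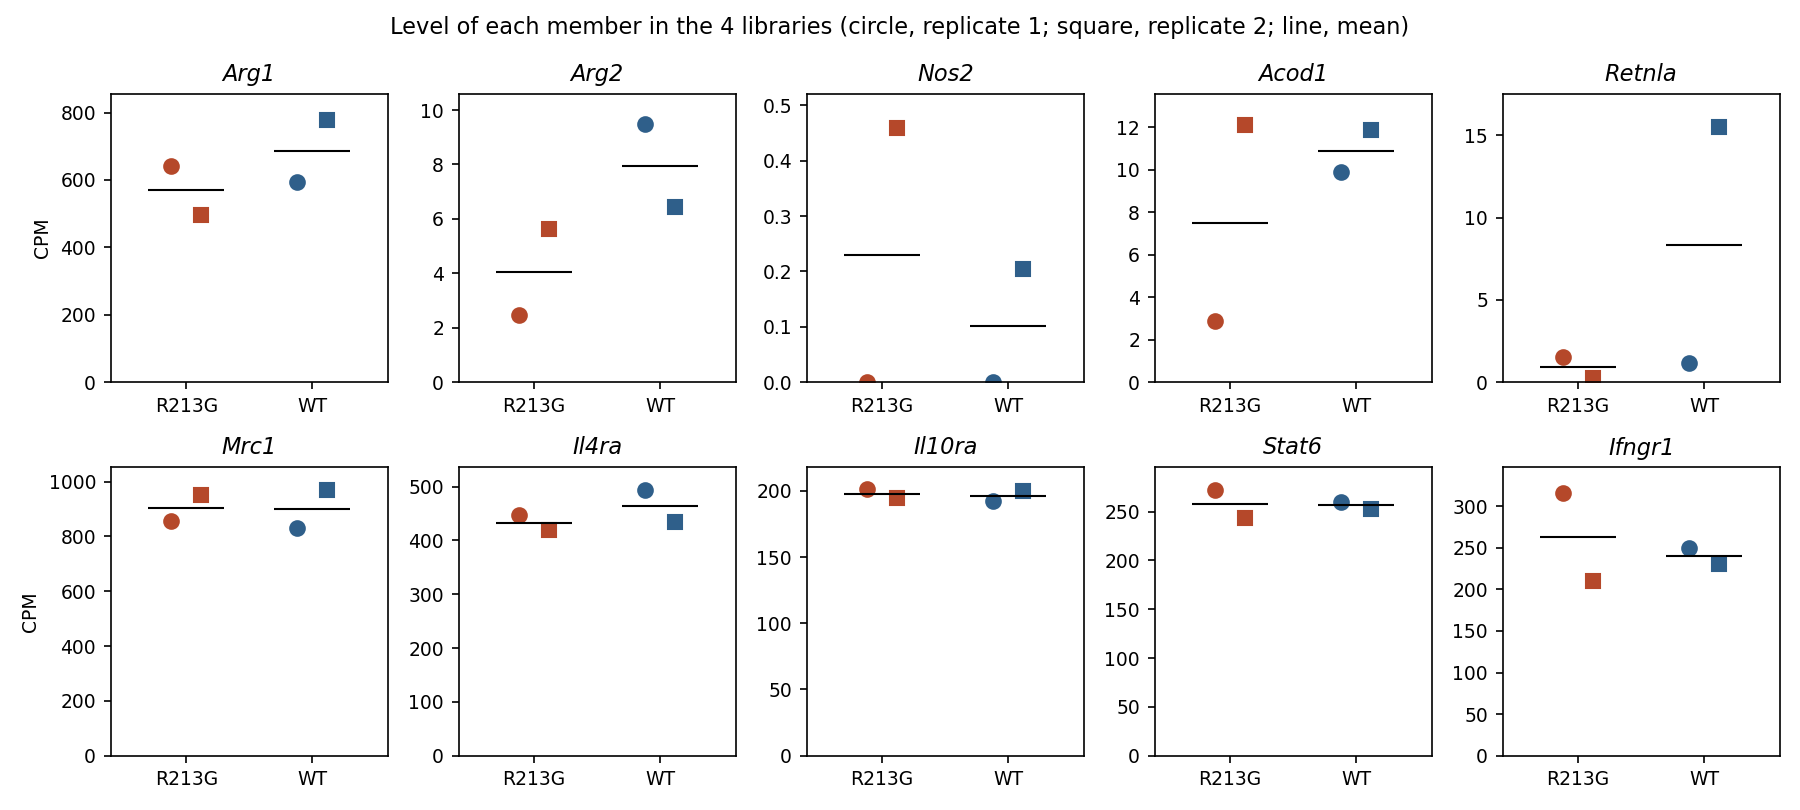
CPM of the 10 members (vertical axes, linear and starting at 0, each panel with its own scale) in the R213G libraries (red, left) and the WT libraries (blue, right), with replicate 1 as a circle, replicate 2 as a square and the mean as a line. Retnla reached 15.5 CPM in WT replicate 2 alone, whereas Il10ra lay between 193 and 201 CPM in all 4 libraries.

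The members covered a wide range of levels. Per kilobase of summed exon length (GENCODE vM21), Arg1 was highest in every library, at 288 and 223 CPM per kb in R213G and 266 and 350 CPM per kb in WT. Mrc1 followed at 135 and 150 CPM per kb in R213G and 131 and 152 CPM per kb in WT, apart from its neighbours on both sides. Next came Ifngr1 with a mean of 88.5 CPM per kb over the 4 libraries and Il4ra with 74.7, whose libraries overlapped, and then Stat6 with 58.4 and Il10ra with 56.4, whose libraries overlapped too. Retnla, Arg2 and Acod1 were far lower, with means of 7.69, 4.20 and 3.51 CPM per kb and overlapping neighbours. Nos2 was last at 0.0376 CPM per kb. The enzymes thus held both ends of the order.

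Arg1, the cytosolic arginase, lies on chromosome 10 from 24915221 to 24927484 (GRCm38, minus strand). It had 641 and 497 CPM in R213G replicates 1 and 2 and 593 and 779 CPM in WT replicates 1 and 2. The genotypes overlapped, with the highest value in a WT library and the lowest in an R213G library. The means were 569 ± 102 CPM in R213G and 686 ± 132 CPM in WT (SD, n = 2 each). The log2 fold change was -0.27 ± 0.16 (SE; 95% interval -0.63 to 0.09; edgeR unadjusted p = 0.129), smaller in size than the gap between replicates 1 and 2 of either genotype, which was 0.37 in R213G and -0.39 in WT on the log2 scale (replicate 1 minus replicate 2). It was -0.06 without WT replicate 2 and -0.10 without R213G replicate 2, and -0.46 without R213G replicate 1 and -0.45 without WT replicate 1. Among the 2088 genes with a mean of at least 100 CPM, 96.5% varied less over the 4 libraries than Arg1 did.

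Arg2, the mitochondrial arginase, lies on chromosome 12 from 79130777 to 79156301 (plus strand). It had 84 and 196 counts in R213G, against 313 and 221 counts in WT, or 2.46 and 5.63 CPM in R213G and 9.47 and 6.44 CPM in WT. Both R213G libraries were below both WT libraries, a pattern that 15.2% of all tested genes showed. The means were 4.05 ± 2.24 CPM in R213G and 7.96 ± 2.14 CPM in WT (SD, n = 2 each), and R213G minus WT was -0.97 ± 0.48 on the log2 scale (95% interval -2.05 to 0.11; edgeR unadjusted p = 0.0739). R213G replicate 1, the library with the fewest genes detected, was the lowest; without it the log2 fold change was -0.49, and without R213G replicate 2 it was -1.69. Of its 1428 exonic bases, 285 also lie in exons of Vti1b on the opposite strand, and the strand setting of the counting is not given in the sources used here, so reads of that stretch cannot be told apart. Arg1 was 167 and 56.6 times higher than Arg2 per kb in R213G and 40.1 and 77.5 times higher in WT.

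Nos2, the inducible nitric oxide synthase on chromosome 11 from 78920787 to 78960254 (plus strand), was close to undetected. It had 0 and 16 counts in R213G and 0 and 7 counts in WT. The exact Poisson 95% intervals of the non-zero counts were 9.15 to 26.0 in R213G replicate 2 and 2.81 to 14.4 in WT replicate 2, and they cover counting error only. For a count of 0 this interval reaches 3.69 counts. A fixed floor of 3 counts was used for such libraries, or 0.0879 CPM in R213G replicate 1 and 0.0908 CPM in WT replicate 1. In each genotype, replicate 1 was at 0 and replicate 2 was above it, so the difference lay within genotypes. Per kb, Arg1 was 14450-fold above the floor of 3 Nos2 counts in R213G replicate 1 and 12930-fold above it in WT replicate 1. Against the counted Nos2 reads, Arg1 was 2140-fold higher in R213G replicate 2 and 7563-fold higher in WT replicate 2. With the low-count filter removed, the log2 fold change of Nos2 was 1.13 ± 2.22 (edgeR unadjusted p = 0.621).

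The genes that supply arginine and use its products did not pass either. Of 18 tested genes of arginine transport, synthesis and use, 0 passed, 9 were positive and 9 negative, and the median log2 fold change was -0.01, against -0.0056 for all tested genes. With single libraries left out the median lay between -0.006 and 0.12. Both R213G libraries were above both WT libraries for 5 of the 18, against 13.7% of all tested genes. They were below for 3 of the 18, against 15.2%. The most abundant were Slc7a2, an inducible arginine transporter, at 325 and 366 CPM in R213G and 275 and 430 CPM in WT, and Slc3a2, the heavy chain of several amino acid transporters, at 319 and 375 CPM in R213G and 398 and 340 CPM in WT. Both overlapped between genotypes, and Slc7a2 had its highest value in WT replicate 2, like Arg1. The members of smallest p were Oaz1, which targets ornithine decarboxylase for destruction, at 14.3 and 12.2 CPM in R213G and 7.66 and 9.18 CPM in WT (0.65 ± 0.31 on the log2 scale), and Ass1, which resynthesises arginine from citrulline, at 12.3 and 21.9 CPM in R213G and 22.2 and 25.1 CPM in WT (-0.47 ± 0.29). With single libraries left out, Oaz1 stayed between 0.53 and 0.79 and Ass1 between -0.95 and -0.11. Of the 19 genes of the list in the table, Pycr1, of the path from ornithine to proline, had at most 12 counts and was the 1 not tested; it is named for that, after its values were seen.

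The cofactor of nitric oxide synthase, tetrahydrobiopterin, is made and recycled by a short path of enzymes, of which 5 were tested. None passed, 3 were positive and 2 negative, and the median log2 fold change was 0.09, with -0.018 without WT replicate 1 and 0.20 without WT replicate 2. Gch1, its first enzyme, was at 40.5 and 36.7 CPM in R213G and 30.3 and 32.3 CPM in WT, with both R213G libraries above both WT libraries (log2 fold change 0.30 ± 0.18), as for 13.7% of all tested genes. Qdpr and Pts, the 2 most abundant, were at 0.09 ± 0.15 and -0.03 ± 0.18. The cofactor enzymes were present in all 4 libraries in which Nos2 was at or near 0.

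Acod1 encodes the mitochondrial enzyme that makes itaconate, a metabolite of activated macrophages, from cis-aconitate. It lies on chromosome 14 from 103046977 to 103056573 (plus strand). It had 98 and 422 counts in R213G and 327 and 408 counts in WT, or 2.87 and 12.1 CPM in R213G and 9.90 and 11.9 CPM in WT. R213G replicate 1 was low and R213G replicate 2 was the highest of the 4, so the genotypes overlapped. The means were 7.50 ± 6.55 CPM in R213G and 10.9 ± 1.41 CPM in WT (SD, n = 2 each), and the log2 fold change was -0.53 ± 0.52 (95% interval -1.69 to 0.62; edgeR unadjusted p = 0.326). R213G replicate 1 decided its direction: without that library the log2 fold change was 0.15, and without R213G replicate 2 it was -1.93.

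The 16 tested genes of itaconate supply and breakdown include the citrate cycle enzymes around cis-aconitate and the itaconate-degrading enzyme Clybl. None passed, 10 were positive and 6 negative, and the median log2 fold change was 0.07, or between 0.0032 and 0.09 with single libraries left out. The most abundant were Acly, which splits citrate in the cytosol, at -0.0009 ± 0.12, and Sdha, a subunit of the succinate dehydrogenase that itaconate inhibits, at 0.08 ± 0.11. The sign of the Acly value changed between scalings and tools. Clybl was at 19.4 and 11.1 CPM in R213G and 9.87 and 8.83 CPM in WT (0.71 ± 0.35 on the log2 scale), and Suclg1, a subunit of succinyl-CoA synthetase, at 75.3 and 50.4 CPM in R213G and 50.3 and 46.4 CPM in WT (0.38 ± 0.20). With single libraries left out, Clybl lay between 0.25 and 1.05 and Suclg1 between 0.06 and 0.64. For both, R213G replicate 1 was clearly the highest library and R213G replicate 2 lay just above WT. Both R213G libraries were above both WT libraries for 5 of the 16, against 13.7% of all tested genes. They were below for 1 of the 16, against 15.2%.

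Retnla encodes RELM-alpha, a secreted protein that interleukin-4 strongly induces in mouse macrophages, and Mrc1 encodes the mannose receptor CD206, a standard surface marker of alternative activation. Their behaviour over the libraries differed: of all tested genes, 99.67% varied less than Retnla and 14.35% less than Mrc1. The levels differ as well, and among genes with a mean of at least 100 CPM Mrc1 was near the middle (42.5% varied less). The 250 bases upstream of the RefSeq start sites (GRCm38.p6, plus strand) are shown for this pair, at chr16:48842359-48842608 for Retnla and chr2:14229164-14229413 for Mrc1. Capitals mark a match to TTCNNNNGAA, the spaced palindrome that STAT6 prefers.
Retnla: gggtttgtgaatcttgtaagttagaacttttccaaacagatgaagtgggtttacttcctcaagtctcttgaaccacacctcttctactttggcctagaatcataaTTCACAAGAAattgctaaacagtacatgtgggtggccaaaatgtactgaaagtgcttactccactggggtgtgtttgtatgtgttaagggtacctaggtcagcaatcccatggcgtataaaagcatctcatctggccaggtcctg
Mrc1: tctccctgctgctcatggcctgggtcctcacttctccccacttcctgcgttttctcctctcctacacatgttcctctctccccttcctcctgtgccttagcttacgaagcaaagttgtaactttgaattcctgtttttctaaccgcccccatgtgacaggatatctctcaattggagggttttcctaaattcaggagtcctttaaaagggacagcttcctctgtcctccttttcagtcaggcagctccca

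The match in Retnla, TTCACAAGAA, spans bases -145 to -136 from the RefSeq start site, and TATAAA follows at -30 to -25. The GENCODE gene starts, 48842551 for Retnla and 14229392 for Mrc1, lie inside the windows shown. By that annotation the last part of each window is within the gene, and the distances to the start site differ. TTCNNNNGAA does not occur in the Mrc1 window. Both strands were searched over 300 bases, the 50 bases after the start site included; TTCNNNNGAA is its own reverse complement. Of 32851 RefSeq promoters of that length, 6.95% hold TTCNNNNGAA and 13.6% hold TATAAA. Of the 10 members, 6 matched a RefSeq entry: those of Acod1, Il4ra, Stat6 and Ifngr1 hold no match to TTCNNNNGAA, and Acod1 has TATAAA at -28 to -23. Arg1, Arg2, Nos2 and Il10ra did not match. A match is a description of the letters, not a site at which binding was measured.

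Retnla, on chromosome 16 from 48842551 to 48844461 (plus strand), had 52 and 9 counts in R213G and 39 and 531 counts in WT, or 1.52 and 0.259 CPM in R213G and 1.18 and 15.5 CPM in WT. A single library, WT replicate 2, was high, and WT replicate 1 lay between the R213G libraries. The means were 0.891 ± 0.894 CPM in R213G and 8.33 ± 10.1 CPM in WT (SD, n = 2 each). R213G minus WT was -3.25 ± 1.27 on the log2 scale (95% interval -6.18 to -0.32; edgeR unadjusted p = 0.0339, adjusted p = 0.9996). WT replicate 2 carried the difference: without it the log2 fold change was -0.41, and it was -5.01 without R213G replicate 1. Replicate 1 minus replicate 2 was -3.65 in WT on the log2 scale, larger in size than the difference between genotypes, and 99.7% of tested genes varied less over the 4 libraries.

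WT replicate 2 stood far above the other libraries for few genes. When each tested gene's log2 CPM in that library was set against the highest of the other 3, a comparison chosen after the values were seen, Ccl24 ranked the first of 13575 with a gap of 4.54, and Retnla the second with 3.30. Ccl24 encodes eotaxin-2, an eosinophil-attracting chemokine that interleukin-4 induces in macrophages. It had 0 and 17 counts in R213G and 11 and 434 counts in WT. A gap above 2 over the other 3 libraries was seen for 26 and 3 genes in R213G replicates 1 and 2 and for 6 and 8 genes in WT replicates 1 and 2. Chil3, a chitinase-like protein that is also a marker of alternative activation in mice, was at 198 and 177 CPM in R213G and 134 and 504 CPM in WT, with a gap of 1.35 (rank 40). Reads of Chil3 may be shared with its near-identical relative Chil4.

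Arg1 and Retnla had the same order of libraries, with WT replicate 2 highest, then R213G replicate 1, WT replicate 1 and R213G replicate 2, an order shown by 261 tested genes (1.92%). Stat6 and Ifngr1 also shared an order with each other, shown by 771 tested genes (5.68%). The gap of WT replicate 2 over the highest other library was 0.28 for Arg1 (rank 812), against 3.30 for Retnla. The 3 genes nearest to Retnla by the distance of centred log2 CPM over the 4 libraries, among 9690 genes with a mean of at least 5 CPM, were Rnase2a, 2210406H18Rik and Chil3. None was near: the distances were 2.71, 2.86 and 2.92 log2 units. The search left out genes as low as Retnla itself (mean 4.61 CPM), Ccl24 among them, so it does not show that no gene was near. Rnase2a, a ribonuclease with closely related copies, was at 11.4 and 6.47 CPM in R213G and 6.87 and 22.9 CPM in WT, again highest in WT replicate 2. The nearest to Arg1 were Umad1, Mcrs1 and Bag4, at distances of 0.0709 to 0.0899, and to Acod1 Hsd3b7, D830050J10Rik and Armc6, at 0.187 to 0.226. With 4 libraries, such likeness is a description only.

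Mrc1, on chromosome 2 from 14229392 to 14332057 (plus strand), was at 858 and 953 CPM in R213G and 832 and 968 CPM in WT. The genotypes overlapped fully, and replicate 2 was slightly higher than replicate 1 in both. R213G minus WT was 0.0084 ± 0.12 on the log2 scale (edgeR unadjusted p = 0.947), and its 95% interval corresponds to a ratio of R213G to WT between 0.832 and 1.22. Its sign changed when single libraries were left out (-0.10 to 0.12). Of genes with a mean of at least 100 CPM, 42.5% varied less.

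**Figure D2:**
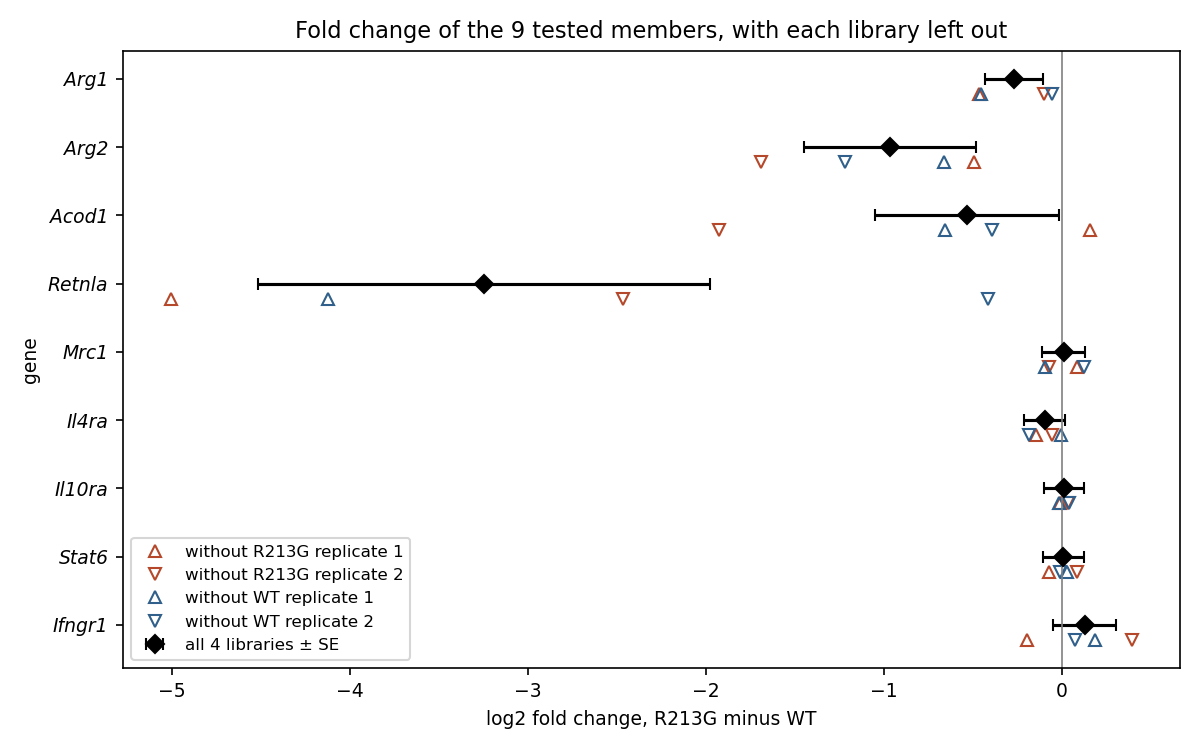
Log2 fold change (horizontal axis, R213G minus WT) of the 9 tested members (rows): diamonds with bars give the value ± SE from all 4 libraries, and open triangles the value with 1 library left out. Retnla moves between -5.01 and -0.41 and Acod1 between -1.93 and 0.15 depending on the library, while Mrc1, Il4ra, Il10ra and Stat6 stay within 0.2 of 0.

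The wider set of interleukin-4 response genes had no called member either. Of 22 tested genes, 0 passed, 14 were positive and 8 negative, and the median log2 fold change was 0.13. The median depended on R213G replicate 1: without it the value was -0.36, and with any other library left out it lay between 0.027 and 0.22. Both R213G libraries were above both WT libraries for 2 of the 22, against 13.7% of all tested genes. They were below for 1 of the 22, against 15.2%. The most abundant were the beta-glucan receptor Clec7a at 878 and 925 CPM in R213G and 782 and 904 CPM in WT and the scavenger receptor Msr1 at 390 and 546 CPM in R213G and 435 and 492 CPM in WT; the sign of the Msr1 value (0.01 ± 0.16) changed between tools. The smallest p-values were those of F13a1, a chain of the clot-stabilising factor XIII, at 130 and 151 CPM in R213G and 274 and 175 CPM in WT (-0.68 ± 0.19 on the log2 scale, unadjusted p = 0.0065, and between -0.96 and -0.32 with single libraries left out), and of Ccl24 (-4.72 ± 1.68, unadjusted p = 0.019), which rests on WT replicate 2 as given above (-0.43 without it).

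Other genes of that list varied along a different line, within each genotype. For 11 of the 22, the 2 highest libraries were R213G replicate 1 and WT replicate 1, against 18.0% of all tested genes. Ccl17, a chemokine for T cells, was at 159 and 49.4 CPM in R213G and 108 and 52.5 CPM in WT. The lectin Mgl2 was at 190 and 69.98 CPM in R213G and 115 and 81.7 CPM in WT, and the lectin Cd209a at 61.9 and 10.2 CPM in R213G and 31.3 and 13.1 CPM in WT. These 3 genes, chosen after their values were seen, were higher in replicate 1 than in replicate 2 of both genotypes, unlike Retnla, Ccl24 and Chil3, and dendritic cells express them as well as macrophages.

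Most markers of dendritic cells varied in the same way. Xcr1 and Clec9a, of the cross-presenting subset, did not, but at 36 counts or fewer they cannot show a subset difference. Within WT, Clec9a was higher in replicate 1, like the other markers. The 7 marker genes summed to 161 and 55.8 CPM in R213G and 182 and 48.0 CPM in WT, and 5 of the 7 had R213G replicate 1 and WT replicate 1 as their 2 highest libraries. Without Cd209a, which the interleukin-4 list holds too, the sums were 98.7 and 45.6 CPM in R213G and 151 and 34.9 CPM in WT. The chemokine receptor Xcr1 had 0 and 17 counts in R213G and 0 and 15 counts in WT, and the lectin Clec9a had 0 and 20 counts in R213G and 36 and 8 counts in WT, so both were at 0 in R213G replicate 1 and Xcr1 also in WT replicate 1. Flt3, the growth factor receptor of dendritic cells, had 691 and 219 counts in R213G and 1010 and 244 counts in WT. The part of dendritic cells in the levels of Ccl17, Mgl2 and Cd209a was not tested. In sorted bulk samples, more cells of a type and more RNA per cell cannot be told apart.

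Marker lists of other cells differed in whether they were high in WT replicate 2, where Retnla was. The 5 monocyte markers other than Chil3 summed to 709 and 509 CPM in R213G and 508 and 647 CPM in WT, with R213G replicate 1 highest. Most of that sum is Ccr2, at 674 and 472 CPM in R213G and 477 and 595 CPM in WT, whereas Ly6c2 and Vcan were highest in WT replicate 2, Vcan at 23.5 and 25.3 CPM in R213G and 19.1 and 38.2 CPM in WT. The 9 resident alveolar macrophage markers other than Chil3 summed to 136 and 138 CPM in R213G and 106 and 91.5 CPM in WT. Plet1 made the sum lowest in WT replicate 2, at 105 and 73.2 CPM in R213G and 77.5 and 54.4 CPM in WT. Marco, at 7.94 and 23.6 CPM in R213G and 7.38 and 9.33 CPM in WT, and Car4, at 9.11 and 19.2 CPM in R213G and 5.63 and 12.8 CPM in WT, were second highest there. The epithelial markers other than Cdh1, an interleukin-4 response gene, summed to 34.5 and 20.2 CPM in R213G and 16.5 and 14.0 CPM in WT, most of it Epcam, at 32.3 and 14.8 CPM in R213G and 14.9 and 9.59 CPM in WT. The epithelial genes Krt8, Sftpa1 and Krt18 were highest in WT replicate 2: Krt8 had 0 and 0 counts in R213G and 0 and 30 counts in WT, Sftpa1 0 and 2 counts in R213G and 0 and 25 counts in WT, and Krt18 0 and 10 counts in R213G and 4 and 24 counts in WT. Other epithelial genes were not highest there. Scgb1a1 had 64 and 87 counts in R213G and 19 and 34 counts in WT, and Sftpb 14 and 76 counts in R213G and 22 and 33 counts in WT. Sftpc, at 8 counts or fewer, was also highest in R213G replicate 2, and Foxj1 had 0 and 6 counts in R213G and 10 and 0 counts in WT. Of the eosinophil markers, Ear6 and Siglecf had rows and summed to 13.3 and 12.1 CPM in R213G and 11.4 and 11.0 CPM in WT. Most of that sum is Siglecf, which the resident alveolar macrophage list holds too. Ear6 had 41 and 17 counts in R213G and 18 and 7 counts in WT. Epx, Prg2, Ccr3 and Il5ra had no row, so the sum says little of eosinophils. The serous cavity markers other than Fn1 and Alox15 summed to at most 5.87 CPM in any library, and Alox15 was listed at 0 in all 4. The part of any of these cells in the Retnla level was not tested.

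**Figure D3:**
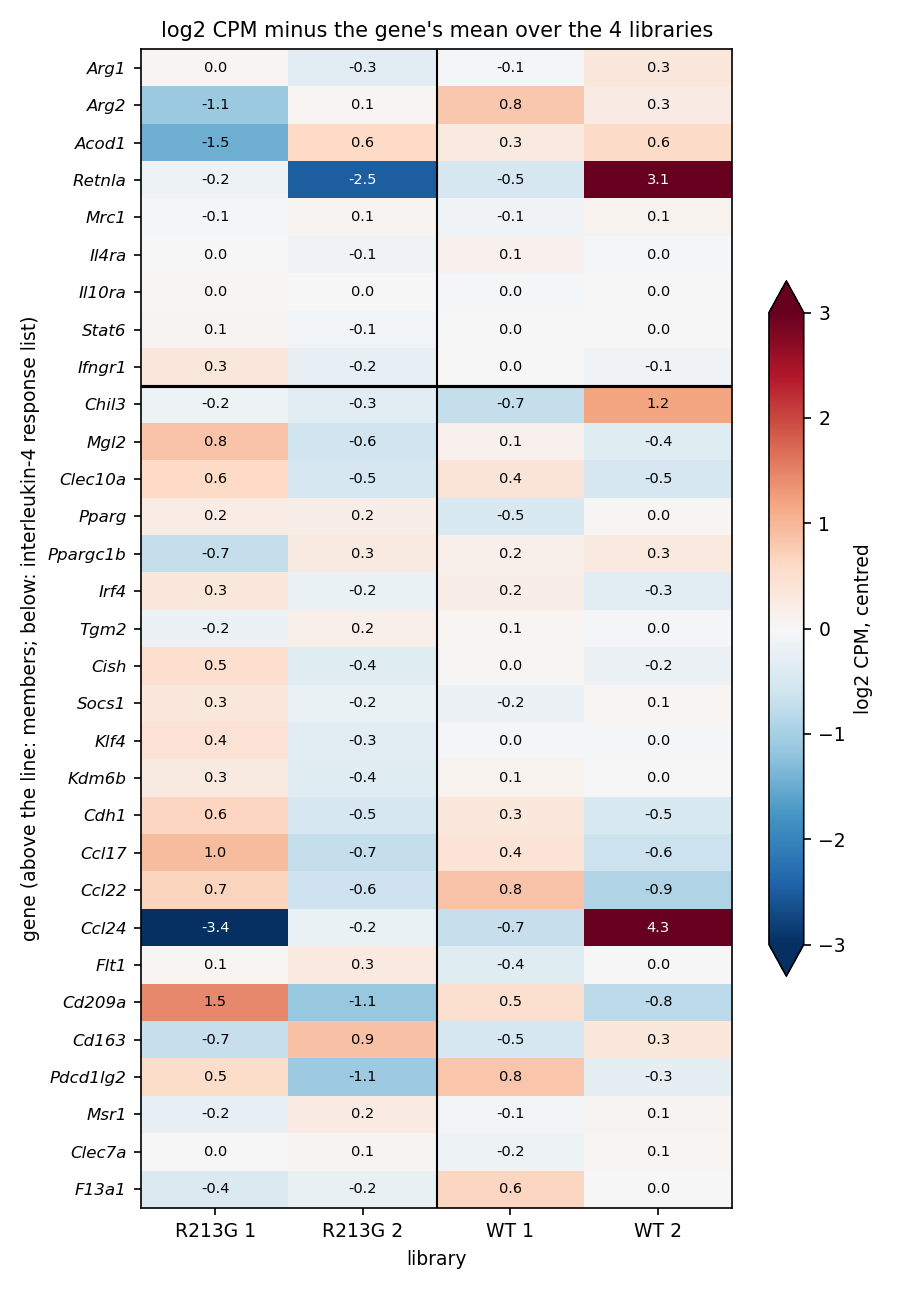
Log2 CPM minus the gene's own mean over the 4 libraries (colour, clipped at 3 either way, and printed in each cell) for the 9 tested members (above the thick line) and the 22 tested interleukin-4 response genes (below), with R213G libraries left and WT libraries right of the thin line. Retnla and Ccl24 stand out in WT replicate 2, whereas Ccl17, Mgl2 and Cd209a are higher in replicate 1 of each genotype and the rows of Il10ra, Il4ra and Stat6 are nearly uniform.

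The receptor chains Il10ra and Il4ra and the transcription factor Stat6 were among the steadiest members, whereas the receptor chain Ifngr1 varied more. Il4ra, the alpha chain shared by the receptors of interleukin-4 and interleukin-13, lies on chromosome 7 from 125552120 to 125579474 (plus strand) and was at 447 and 419 CPM in R213G and 493 and 435 CPM in WT. The genotypes overlapped, with the highest value in WT replicate 1. The log2 fold change was -0.10 ± 0.12 (edgeR unadjusted p = 0.418), a ratio of R213G to WT with a 95% interval of 0.779 to 1.12. With single libraries left out, it lay between -0.19 and -0.0052 on the log2 scale. Of its 6002 exonic bases, 571 lie in exons of an antisense transcript, Gm44876.

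Stat6, the transcription factor that this receptor activates, lies on chromosome 10 from 127642986 to 127660957 (plus strand) and was at 272 and 243 CPM in R213G and 260 and 253 CPM in WT. The R213G libraries enclosed the WT libraries. The log2 fold change was 0.0067 ± 0.12 (edgeR unadjusted p = 0.955), with a 95% interval of the ratio from 0.838 to 1.20, and its sign changed with the library left out (-0.08 to 0.08). The mRNA level says nothing of STAT6 phosphorylation, which was not measured.

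Il10ra, the ligand-binding chain of the receptor for the anti-inflammatory interleukin-10, lies on chromosome 9 from 45253837 to 45269149 (minus strand) and was at 201 and 194 CPM in R213G and 193 and 200 CPM in WT. The 4 libraries overlapped almost completely: of the genes with a mean of at least 100 CPM, 2.73% varied less. The log2 fold change was 0.011 ± 0.11 (edgeR unadjusted p = 0.923), with a 95% interval of the ratio from 0.844 to 1.20. Its sign changed with the library left out (-0.02 to 0.04). The ligand gene Il10 was listed at 0 counts in all 4 libraries. The floor of 3 counts is 0.0879 and 0.0862 CPM in R213G and 0.0908 and 0.0874 CPM in WT.

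Of 16 tested genes of interleukin-4 and interleukin-10 receptor signalling, 0 passed, 5 were positive and 11 negative, with a median log2 fold change of -0.04. It was -0.12 without WT replicate 2, 0.0022 without WT replicate 1 and -0.0003 without R213G replicate 2. The phosphatase Ptpn6 was at 464 and 439 CPM in R213G and 397 and 453 CPM in WT. Sbno2, a corepressor that STAT3 induces after interleukin-10, was at 307 and 364 CPM in R213G and 378 and 398 CPM in WT, with both R213G libraries below both WT libraries (-0.21 ± 0.12 on the log2 scale, and between -0.34 and -0.09 with single libraries left out). Il2rg, the common gamma chain that pairs with Il4ra, was at 88.5 and 88.4 CPM in R213G and 111 and 101 CPM in WT (-0.26 ± 0.13, unadjusted p = 0.0735). For 5 of the 16, both R213G libraries were below both WT libraries, against 15.2% of all tested genes, by small differences that did not pass. For 1 of the 16 both were above, against 13.7% of all tested genes.

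Ifngr1, the ligand-binding chain of the interferon gamma receptor, lies on chromosome 10 from 19591949 to 19610229 (plus strand). It was at 316 and 210 CPM in R213G and 250 and 231 CPM in WT, so the R213G libraries held both the highest and the lowest value. The means were 263 ± 75.3 CPM in R213G and 241 ± 13.7 CPM in WT (SD, n = 2 each). The log2 fold change was 0.13 ± 0.18 (95% interval -0.27 to 0.52; edgeR unadjusted p = 0.488), against 0.59 for R213G replicate 1 minus R213G replicate 2. R213G replicate 1, the library with the fewest genes detected, decided the direction: the value was -0.20 without it and 0.39 without R213G replicate 2. Of genes with a mean of at least 100 CPM, 94.7% varied less, so Ifngr1 varied more than the other receptors, and more than most genes of its level.

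The signalling partners and targets of this receptor had no called member. Of 18 tested interferon gamma genes, 0 passed, 9 were positive and 9 negative, and the median log2 fold change was -0.0023, or between -0.05 and 0.06 with single libraries left out. The most abundant, the kinase Jak1 at 315 and 316 CPM in R213G and 348 and 312 CPM in WT and the Fc receptor Fcgr1 at 249.9 and 250.5 CPM in R213G and 261 and 243 CPM in WT, had log2 fold changes of -0.07 ± 0.11 and -0.0089 ± 0.11. The smallest p-values were those of the chemokine Cxcl10, at 12.9 and 19.1 CPM in R213G and 9.78 and 11.0 CPM in WT (0.62 ± 0.31), and of the immunity-related GTPase Iigp1, at 1.41 and 2.70 CPM in R213G and 4.39 and 2.45 CPM in WT (-0.72 ± 0.62). With single libraries left out, Cxcl10 lay between 0.31 and 0.88 and Iigp1 between -1.27 and -0.25. Both R213G libraries were above both WT libraries for 4 of the 18, against 13.7% of all tested genes. They were below for 1 of the 18, against 15.2%.

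Cytokines and co-receptors of classical activation had mostly negative values, none of which passed. Of 11 tested, 2 were positive and 9 negative, where 49.1% of all tested genes were positive, with a median log2 fold change of -0.35 against -0.0056 over all tested genes. The median depended on the WT libraries: it was -0.0059 without WT replicate 1 and -0.60 without WT replicate 2. The most abundant, the costimulatory receptor Cd86 at 69.8 and 62.5 CPM in R213G and 86.0 and 65.4 CPM in WT and the cytokine Il1b at 30.9 and 31.1 CPM in R213G and 33.4 and 32.8 CPM in WT, had log2 fold changes of -0.19 ± 0.17 and -0.09 ± 0.18. The neutrophil-attracting chemokine Cxcl2 had 43 and 37 counts in R213G and 158 and 179 counts in WT (log2 fold change -2.10 ± 0.59, edgeR unadjusted p = 0.0056), and the NF-kB cofactor Nfkbiz 287 and 293 counts in R213G and 486 and 401 counts in WT (-0.65 ± 0.31). With single libraries left out, Cxcl2 lay between -2.23 and -1.99 and Nfkbiz between -0.81 and -0.47. For 4 of the 11, these genes among them, both R213G libraries were below both WT libraries, against 15.2% of all tested genes. For 0 of the 11 both were above, against 13.7%. Of 12 listed markers of neutrophils, which also express such cytokines, 6 were in the table, and Ly6g, Mpo and Elane were among those that were not. The sums of the 6 were lower in R213G, at 137 and 160 CPM in R213G and 187 and 180 CPM in WT. Most of each sum was Csf3r and Mmp8. Csf3r, the receptor of granulocyte colony-stimulating factor, was at 45.3 and 55.4 CPM in R213G and 74.5 and 68.0 CPM in WT (-0.50 on the log2 scale, edgeR unadjusted p = 0.011, not passing after adjustment), and the collagenase Mmp8 at 70.7 and 90.0 CPM in R213G and 101 and 97.7 CPM in WT. S100a8 had a positive value of 0.39 on the log2 scale, at 19.7 and 12.2 CPM in R213G and 11.1 and 13.2 CPM in WT. S100a9 had 31 counts in R213G replicate 1 and was at 0 in the other 3 libraries. Cxcr2 had 0 and 33 counts in R213G and 0 and 35 counts in WT, and Ltf 0 and 37 counts in R213G and 21 and 10 counts in WT. The part of neutrophils in the cytokine values was not tested.

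**Figure D4:**
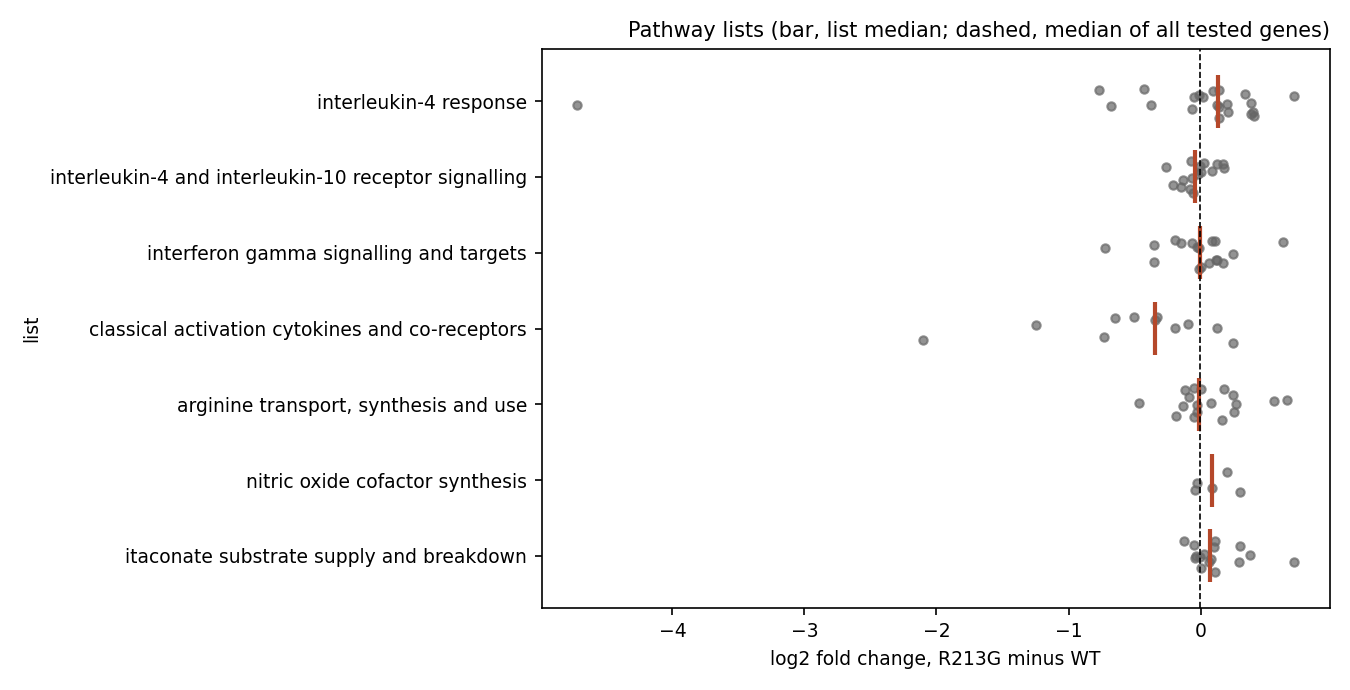
Log2 fold change (horizontal axis, R213G minus WT) of each tested gene (points, spread vertically for visibility) in the 7 pathway lists (rows), with the list median as a bar and the median of all 13575 tested genes as a dashed line. List medians lie between -0.35 and 0.13, and the farthest point is Ccl24 at -4.72.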

How the data were processed

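Poly(A) RNA of sorted recruited alveolar macrophages was sequenced from directional libraries, per the labels' protocols. The deposited table holds the authors' raw gene counts by symbol, without normalization. The submitters' processing notes name STAR 2.5.1b, featureCounts (Subread 1.4.4) and GRCm38. The sources used here do not give the annotation release, the strand setting or how multi-mapped reads were treated. Each column carries the short name of 1 sample's label. No 2 libraries agreed within sampling noise (chi-square per degree of freedom of at least 17.5).

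Counts were fitted over all genes in edgeR 4.0.16 (R 4.3.3): quasi-likelihood test in its newer form with robust estimation, TMM scaling, filterByExpr by genotype, 2 residual degrees of freedom, Benjamini-Hochberg adjustment, threshold 0.05. CPM are scaled by TMM library sizes, and log2 CPM use a prior count of 2. The SE is the absolute log2 fold change over the square root of F, and intervals use the test's total degrees of freedom. Positions and exon lengths came from GENCODE vM21, promoters from RefSeq (GRCm38.p6). With no molecular identifiers, PCR duplicates are counted too, and intervals cover counting error only where so stated. The fit was also run on simulated counts with the same dispersion for every gene and changes placed only in genes of at least 5 CPM. That setting does not show how the fit performs for genes as low or as variable as Retnla.

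The members and lists were chosen with earlier results of these data known. From each list the 2 genes of highest level and the 2 of smallest p were named; other names are marked as chosen after their values were seen or are list markers. Of the genes chosen this way, 1 is not reported here. Nearest genes were sought for Arg1, Acod1 and Retnla. Alternatives were DESeq2 1.42.0 and its size factors, upper-quartile scaling, other filters, the legacy form, limma voom (3.58.1), a replicate block and leaving out each library.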

Additional observations from a re-analysis of the deposited data

How the results depend on the processing

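The count of called genes was 0 with all 4 libraries; it was 1 by DESeq2 (not a member) and 0 to 2 when 1 library was left out, with no member called in any setting. At an unadjusted p under 0.05 edgeR gave 302 genes, limma voom 201 and DESeq2 271, but the edgeR count was 1960 without R213G replicate 2, 216 without R213G replicate 1, 71 without WT replicate 1 and 207 without WT replicate 2. Under the 8 scalings, filters and tools (7 for Retnla, which the stricter filter removed), no member changed direction (71 values). With 1 library left out, 8 of 36 values did, and the log2 fold changes ranged from -1.93 to 0.15 for Acod1, -0.10 to 0.12 for Mrc1, -0.016 to 0.039 for Il10ra, -0.076 to 0.083 for Stat6 and -0.20 to 0.39 for Ifngr1. Leaving out 1 library leaves a genotype with a lone library, assumed to vary like the other. Of the 27 list genes that the rule names, 3 changed sign between scalings and tools (Acly, Msr1 and Slc7a2) and 12 with a library left out. Replicate numbers are not said to pair libraries: over 9690 genes the within-genotype differences of replicate 1 and 2 correlated at 0.194, and a fit with the number as a block called 0 genes (298 at an unadjusted p under 0.05). Nos2 was too low for a fold change in most settings. With 2 libraries per genotype, changes of the size seen for Arg2 or Acod1 could not be told from the spread.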
